A study of Homo sapiens with 8 samples.

Results

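The genes of polyamine synthesis and of its antizyme control were followed in ribosome profiling libraries of METTL5-WT and METTL5-KO cells. The 8 genes, ODC1, OAZ1, OAZ2, AZIN1, AMD1, SAT1, SRM and SMS, were taken by name from the table of translation efficiency (TE), and all 8 were found among its 11244 genes. METTL5 is the methyltransferase that places N6-methyladenosine on 18S ribosomal RNA, and the series asks what its loss does to translation. The METTL5-KO cells had been made with CRISPR-Cas9 and guide RNAs aimed at cutting METTL5 exons out, and the METTL5-WT cells kept the gene. All plates of both genotypes were treated with cycloheximide, which holds ribosomes on the mRNA, before lysis. There were 4 lysates, 2 per genotype. Each gave an input RNA library and, after micrococcal nuclease had removed RNA not covered by ribosomes, a library of ribosome-protected fragments (RPF), 8 libraries in all. Knockout lines were grown from single cells, and the METTL5-WT cells blotted in the paper also came from a single clone. The clone behind each replicate is not given, so differences between clones and between genotypes cannot be told apart.

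Polyamines are small cations that bind nucleic acids and that growing cells need. Ornithine decarboxylase (ODC1) makes putrescine. S-adenosylmethionine decarboxylase (AMD1) makes the aminopropyl donor with which SRM builds spermidine and SMS builds spermine. SAT1 acetylates spermidine and spermine for export or oxidation. The antizymes OAZ1 and OAZ2 bind ODC1 and hand it to the proteasome, and the antizyme inhibitor AZIN1, a relative of ODC1 without its activity, takes antizyme away from it. Much of this control is exerted during translation: antizyme synthesis needs a ribosomal frameshift that polyamines favour, and AMD1 carries a short reading frame in its leader (the 5′ untranslated region) that holds ribosomes back when polyamines are abundant.

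The signals that the text turns on could be read from the reference genome. In OAZ1 and OAZ2 the first reading frame ends at a TGA stop codon, and the protein is completed only where the ribosome skips the T of that codon. They are shown because the footprints counted below for both genes come from a coding sequence interrupted in this way. Those footprints are totals per gene, so ribosomes before the stop codon and ribosomes past it were not told apart. In the following 30-base windows of the coding sequence (hg38, 5′ to 3′), capitals mark the last codon of the first frame and the stop codon:
OAZ1: ctcggtggtgcTCCTGAtgcccctcaccca
OAZ2: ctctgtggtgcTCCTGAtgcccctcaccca
The OAZ1 window lies on chr19:2271429-2271458, plus strand, and the base left out of the annotated coding sequence is position 2271443. The OAZ2 window lies on chr15:64691500-64691529, minus strand, with position 64691515 left out. The windows share 29 of 30 bases. In the canonical transcripts of the TE table, 7 genes have a gap of 1 base in their coding annotation, and in 3 of these, OAZ1, OAZ2 and the testis antizyme OAZ3, the letters TCCTGA stand at the gap. The leader frame of AMD1 is the next signal, with its start and stop codons in capitals:
AMD1: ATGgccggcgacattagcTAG
It lies on chr6:110874796-110874816, plus strand, begins at leader base 12, has 6 codons before its stop and is followed by 289 further leader bases.

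The other members differ in the same respects. By the GENCODE 44 annotation, SRM (ENSG00000116649, chromosome 1, 11054584 to 11060020, minus strand) and OAZ1 (ENSG00000104904, chromosome 19, 2269509 to 2273490, plus strand) have no ATG in their leaders. AMD1 (ENSG00000123505, chromosome 6, 110874770 to 110898879, plus strand) and ODC1 (ENSG00000115758, chromosome 2, 10439968 to 10448327, minus strand) have 1 leader ATG each, as does SMS (ENSG00000102172, chromosome X, 21940709 to 21994837, plus strand). OAZ2 (ENSG00000180304, chromosome 15, 64687573 to 64703281, minus strand) and SAT1 (ENSG00000130066, chromosome X, 23783173 to 23786210, plus strand) have 2. AZIN1 (ENSG00000155096, chromosome 8, 102826111 to 102893864, minus strand) has 3, in the longest leader of the group at 590 bases. The leader ATG of SMS opens no reading frame that ends within the leader, and in SAT1 only 1 of the 2 does. Of all genes in the TE table, 39.9% have at least 1 leader ATG, against 6 of the 8 members. The members were chosen as genes under control by leader reading frames, frameshifting or stability, so this share is not a finding. The coding sequences of SRM and OAZ1 are also the richest in GC, at 61.9% and 58.9%, and that of AZIN1 is the poorest, at 39.6% (the median over the TE table was 52.3%).

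Before the members are described, the libraries themselves need a short account. Input libraries held 10710226 to 15307257 counts. RPF libraries held 3970779 and 4592443 reads for METTL5-WT against 8626705 and 9255921 for METTL5-KO, so footprints of low genes were least precise in METTL5-WT. METTL5 had 490 and 542 input counts in METTL5-WT against 208 and 151 in METTL5-KO, and 158 and 226 RPF reads against 41 and 21, so it was lower in all METTL5-KO libraries. The cells are labelled HepG2, an established liver cancer line, but the 8 hepatocyte markers examined were close to absent. No other genes were examined as hepatocyte markers. The urea cycle, a liver pathway, is held in one of the pathway lists below, and its genes went both ways. CPS1 had 9229 to 11151 input counts per library, ASS1 900 to 1376 and ASL 108 to 300, whereas OTC and ARG1 had 0. The 8 markers ALB, AFP, APOA1, APOB, TTR, SERPINA1, HNF4A and FGB had 0 to 9 counts each in any input library, with TTR, SERPINA1 and FGB at 0 in all 4. Of 8 markers of other cell types, COL1A1 had 429 and 484 counts in METTL5-WT against 666 and 937 in METTL5-KO, DCN had 83 to 170, and the other 6 had 0 to 6 in each library. The libraries are therefore named by genotype below, and all of them carry this limit.

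The level of each member in METTL5-WT was compared first, as TE, the log2 ratio of RPF per kilobase of coding sequence to input per kilobase of transcript. Values are normalised read counts, that is, whole reads divided by a size factor per library. The median of all 11224 genes with an annotated coding length was 1.14, with quartiles of 0.43 and 1.86. Members spread over much of the range, and 7 of 8 lay below the median gene.

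SRM, spermidine synthase, had the highest TE of the members, 2.06 in each of the METTL5-WT lysates, at percentile 80.3 of all genes. OAZ1 came next at 0.93 and 0.91 (percentile 41.4). OAZ2 had 0.59 and 0.13 (percentile 23.0). These 3 genes did not overlap each other, although the lysates of OAZ2 differed from each other by more than those of SRM or OAZ1.

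AZIN1 had a TE of −0.35 and −0.02 (percentile 11.3) and SAT1 of −0.56 and 0.05 (percentile 10.2). These neighbours overlapped, and SAT1 also overlapped ODC1, which had −0.45 and −0.79 (percentile 6.18). SMS, spermine synthase, had −1.23 and −1.09 (percentile 2.68), and AMD1 had −1.17 and −1.46 (percentile 2.04). The last pair overlapped each other and lay below every other member in both lysates.

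Low TE did not mean few transcripts. Per kilobase of transcript, ODC1 had the highest METTL5-WT input level of the members, 2501 ± 134 normalised reads (SD, n = 2), and OAZ1 followed at 2483 ± 163, a difference smaller than either SD. AMD1 was next at 851 ± 18.4, ahead of SMS at 758 ± 2.94. AZIN1 (409 ± 4.06) and OAZ2 (368 ± 53.6) were lowest and differed by less than the SD of OAZ2. Per kilobase of coding sequence, footprints of OAZ1 were the most numerous, at 4694 ± 352, and SRM followed at 3041 ± 72.9, while AMD1 (344 ± 56.5) and SMS (339 ± 23.9) were lowest and differed by less than their SDs.

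**Figure D1:**
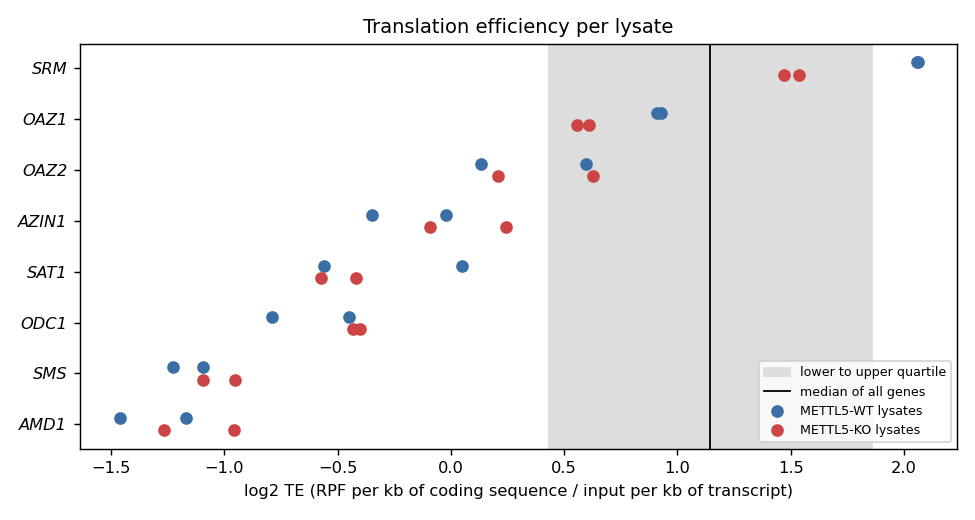
Translation efficiency of the 8 genes in each lysate, as log2 of RPF per kilobase of coding sequence over input per kilobase of transcript, with 1 point per lysate in blue for METTL5-WT and red for METTL5-KO. The line is the median of all genes in METTL5-WT (1.14) and the band runs between their quartiles, and SRM alone lies above that line.

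Among all genes, those without a leader ATG had a median METTL5-WT TE of 1.36 (n = 6742) and those with at least 1 had 0.82 (n = 4482). SRM and OAZ1, without a leader ATG, were the 2 members of highest TE, and the 6 members with a leader ATG lay at 0.36 and below. This is a description of annotation and level side by side, with no test, since genes are not replicates. The percentiles of most members depended on the length used. With coding length for both library types OAZ1 stood at percentile 55.5, OAZ2 at 13.1, ODC1 at 12.3, SMS at 8.17 and SRM at 91.7. With the union of annotated exons for input, OAZ1 stood at 72.0, OAZ2 at 68.2, SAT1 at 25.3, AMD1 at 10.4, ODC1 at 3.77 and SMS at 1.88, so that SMS and ODC1 then lay below AMD1. SRM stayed the highest member under each of these lengths.

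The members were next compared between genotypes in input, RPF and TE. Changes are log2 differences, METTL5-KO minus METTL5-WT, with their standard errors. Input counts were tested with edgeR, and RPF and TE with limma on log2(value + 1), a scale that understates changes of low genes. The TE change is the interaction of genotype and library type, so it is the RPF change less the input change on that scale. A gene was called at a Benjamini-Hochberg adjusted p under 0.05 over all genes tested. Nothing states that replicates were separate cultures, so these p-values measure the spread between samples that may be technical. In lysates of whole cultures, fewer cells with a transcript and less of it per cell cannot be told apart. An exact permutation test of 2 samples against 2 cannot go below 0.333 (two-sided), so calls rest on the models across all genes.

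In input, 2 of 8 members were called, SRM higher and SAT1 lower in METTL5-KO, where 22.4% of the 14054 genes tested were called. In RPF, 2 of 8 were called by limma, AZIN1 higher and SAT1 lower (29.3% of 11240 genes), and edgeR on the recovered reads called SAT1 alone (27.8%). In TE, 1 of 8 was called by each test, SRM lower (4.79% of genes by limma and 6.81% by edgeR). With the GC trend removed, limma called 1 of 8 members in RPF (31.6% of genes), and limma on the input values of the TE table called 1 of 8 in input (17.3%). The median change of the members was 0.10 in input, 0.10 in RPF and 0.09 in TE, beside −0.00, 0.02 and 0.02 for all genes tested. The genotypes did not overlap in input for 6 of the 8 members (63.3% of all genes), in RPF for 3 (61.4%) and in TE for 3 (53.1%). The called shares were near those of all genes in input and RPF, and the share without overlap was below that of all genes in RPF.

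**Figure D2:**
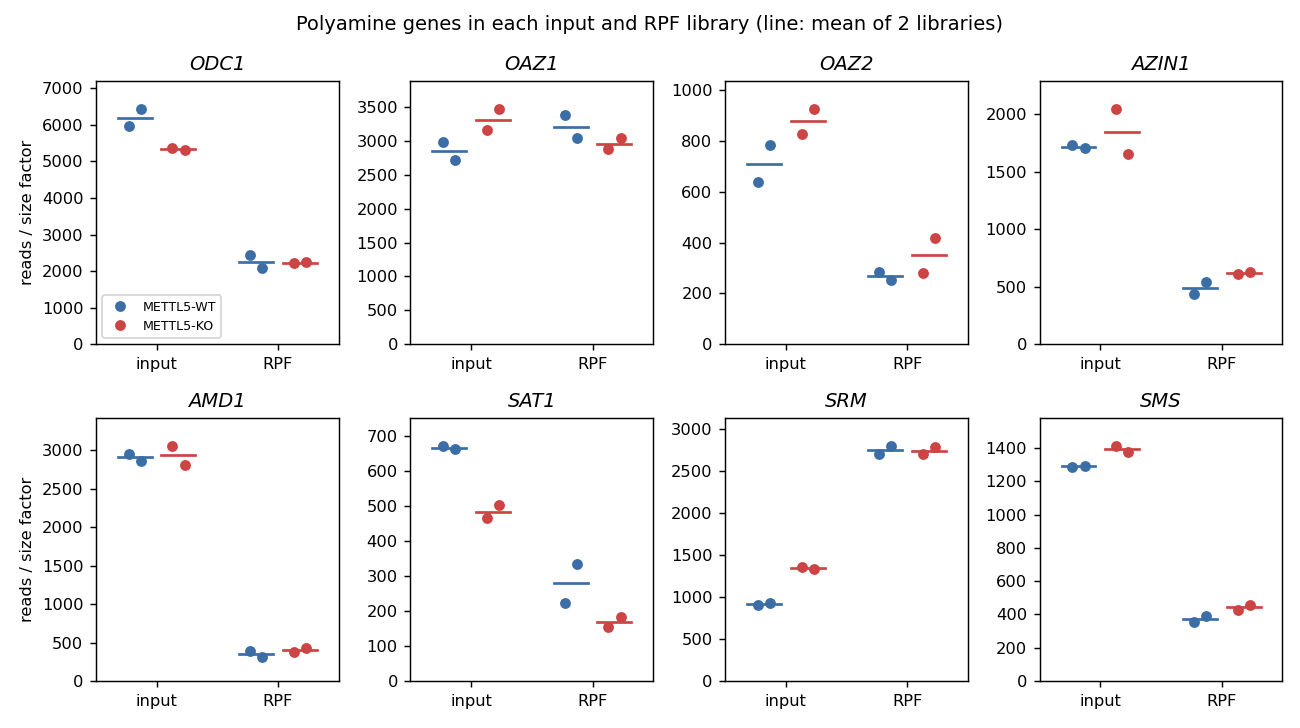
Normalised read counts (reads divided by the size factor of the library) of the 8 genes in each input and RPF library, METTL5-WT in blue and METTL5-KO in red, with a line at the mean of 2 libraries. SRM input rose from 906 and 934 to 1362 and 1335 while its RPF values stayed between 2708 and 2802, and SAT1 was lower in METTL5-KO in both library types.

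SRM was the member with the clearest difference. Its input values were 906 and 934 in METTL5-WT against 1362 and 1335 in METTL5-KO, so both METTL5-KO libraries were higher. The input change was 0.54 ± 0.11 (1.45-fold, adjusted p = 0.00122). Its RPF values were 2708 and 2802 in METTL5-WT against 2711 and 2783 in METTL5-KO, which lay within the METTL5-WT range, and the change was −0.00 ± 0.10 (adjusted p = 0.98). More SRM transcript was thus found with about the same number of footprints. TE went from 2.06 and 2.06 to 1.47 and 1.54, a change of −0.56 ± 0.13 (0.680-fold, adjusted p = 0.0278 by limma and 0.0159 by edgeR).

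The TE change of SRM was smaller once the GC trend had been removed. TE changes of all genes fell with the GC content of the coding sequence, and the 1478 genes within 2 percentage points of SRM had a median change of −0.28. SRM stood at percentile 24.2 among these and at 12.9 among all genes. After the GC trend had been removed from each library, its change was −0.27 ± 0.13 and was no longer called (adjusted p = 0.28). The call was also lost when any of the 4 lysates was left out, with changes from −0.52 to −0.59, and in limma without the trend of variance on level (adjusted p = 0.162). COL1A1, the marker of another cell type that was detected most, also differed in input (0.44 ± 0.14, adjusted p = 0.0225), with −0.03 ± 0.13 in RPF (adjusted p = 0.877) and −0.49 ± 0.18 in TE (adjusted p = 0.115), and its part in the SRM result was not tested. The input change of SRM remained called with the GC trend removed (0.42 ± 0.09, adjusted p = 0.00479) but not without METTL5-WT replicate 1 or replicate 2 (adjusted p = 0.152 and 0.0958).

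SMS, which extends spermidine to spermine, had input values of 1287 and 1294 in METTL5-WT against 1414 and 1379.6 in METTL5-KO. Its RPF values were 354 and 391 against 427 and 459. METTL5-KO libraries were higher in both types, and neither difference was called (input 0.10 ± 0.11, adjusted p = 0.572, and RPF 0.25 ± 0.11, adjusted p = 0.106). The TE change was 0.14 ± 0.16 (adjusted p = 0.651), so SRM and SMS, the aminopropyl transferases that act in turn, had TE changes of opposite sign, of which that of SRM was called. The difference between them was not tested, and with the GC trend removed both were below 0, at −0.27 and −0.06.

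ODC1, the entry enzyme of the pathway, had input values of 5958 and 6427 in METTL5-WT against 5365 and 5317 in METTL5-KO. Both METTL5-KO libraries were lower, but the change of −0.23 ± 0.11 was not called (adjusted p = 0.161). Its RPF values of 2437 and 2074 in METTL5-WT enclosed the 2218 and 2251 of METTL5-KO, with a change of −0.01 ± 0.10 (adjusted p = 0.96). The TE values of METTL5-KO, −0.43 and −0.40, lay just above those of METTL5-WT, and the TE change of 0.20 ± 0.14 was not called (adjusted p = 0.42).

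AMD1, whose leader frame is printed above, had input values of 2958 and 2868 in METTL5-WT against 3059 and 2813 in METTL5-KO. The genotypes overlapped and the change was −0.00 ± 0.11 (adjusted p = 0.992). RPF values were 385 and 305 against 373 and 424, which also overlapped (0.21 ± 0.12, adjusted p = 0.206). These are 162 and 152 reads in METTL5-WT against 309 and 380 in METTL5-KO. TE changed by 0.20 ± 0.17 (adjusted p = 0.516), so no difference was detectable at this depth. TE over the leader frame itself was not analysed here, since the values are totals per gene.

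OAZ1, the more abundant antizyme, had input values of 2983 and 2718 in METTL5-WT against 3163 and 3469.6 in METTL5-KO. RPF values were 3381 and 3040.3 in METTL5-WT against 2879.8 and 3043 in METTL5-KO. Input was higher in both METTL5-KO libraries, whereas RPF values overlapped. The input change was 0.21 ± 0.12 (adjusted p = 0.217) and the RPF change was −0.11 ± 0.10 (adjusted p = 0.425). TE was 0.61 and 0.56 in METTL5-KO, below both METTL5-WT lysates, and its change of −0.33 ± 0.14 was not called (adjusted p = 0.177 by limma and 0.144 by edgeR). With the GC trend removed it was −0.17 ± 0.12. Among 1558 genes of like GC content the median was −0.15 and OAZ1 stood at percentile 33.5.

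OAZ2, the less abundant antizyme with the same frameshift letters, did not follow OAZ1 in TE. Its input values were 639 and 785 in METTL5-WT against 829 and 926 in METTL5-KO, higher in both METTL5-KO libraries (0.29 ± 0.13, adjusted p = 0.103). RPF values were 283 and 253 in METTL5-WT against 281 and 419 in METTL5-KO, where the second METTL5-KO library stood apart from the other 3 (0.36 ± 0.17, adjusted p = 0.122). The RPF change was 0.072 without that library (adjusted p = 0.812), and without METTL5-KO replicate 1 it was 0.65 and called (adjusted p = 0.0293). The TE change was 0.05 ± 0.24 (adjusted p = 0.919). The standard error of OAZ2 in TE was larger than that of OAZ1, its METTL5-WT footprints were 119 and 126 reads against 1423 and 1516, and the difference between the antizymes was not tested.

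AZIN1, which frees ODC1 from antizyme, was the only member whose RPF rise was called by limma. RPF values were 435 and 537 in METTL5-WT against 614 and 627 in METTL5-KO, so both METTL5-KO libraries were higher. The change was 0.36 ± 0.13 (1.28-fold), called by limma (adjusted p = 0.0403) and not by edgeR (adjusted p = 0.0741). It was also not called with the GC trend removed (0.22 ± 0.09, adjusted p = 0.0923), nor when METTL5-WT replicate 1 was left out (0.21, adjusted p = 0.378), METTL5-KO replicate 1 (0.37, adjusted p = 0.0994) or METTL5-KO replicate 2 (0.34, adjusted p = 0.122). Input values were 1729 and 1705 against 2041 and 1654 and overlapped (0.09 ± 0.12, adjusted p = 0.639). The TE change of 0.26 ± 0.18 was not called (adjusted p = 0.399).

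SAT1, the acetyltransferase of polyamine breakdown, was lower in METTL5-KO in both library types. Input values were 673 and 663 in METTL5-WT against 465 and 504 in METTL5-KO, a change of −0.48 ± 0.12 (0.719-fold, adjusted p = 0.00563). RPF values were 223 and 335 in METTL5-WT against 153 and 184 in METTL5-KO. The METTL5-WT libraries differed from each other by more than the gap between the genotypes, and the RPF change was −0.70 ± 0.18 (0.615-fold, adjusted p = 0.00664 by limma and 0.00237 by edgeR). TE values overlapped, with −0.57 and −0.42 in METTL5-KO, and the TE change was −0.24 ± 0.25 (adjusted p = 0.611).

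Leaving out a library changed the calls of SAT1. The input call was lost without METTL5-WT replicate 1 (−0.46) or replicate 2 (−0.48). Limma on the input values of the TE table did not call SAT1 in input (−0.46 ± 0.18, adjusted p = 0.0836). Nor did limma with the GC trend removed (−0.36 ± 0.18, adjusted p = 0.195). The RPF call was lost without METTL5-WT replicate 2, whose value was the highest (−0.41, adjusted p = 0.146), and without METTL5-KO replicate 1 (−0.57, adjusted p = 0.116). With the GC trend removed the RPF change was −0.78 ± 0.18 and remained called (adjusted p = 0.00361).

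**Figure D3:**
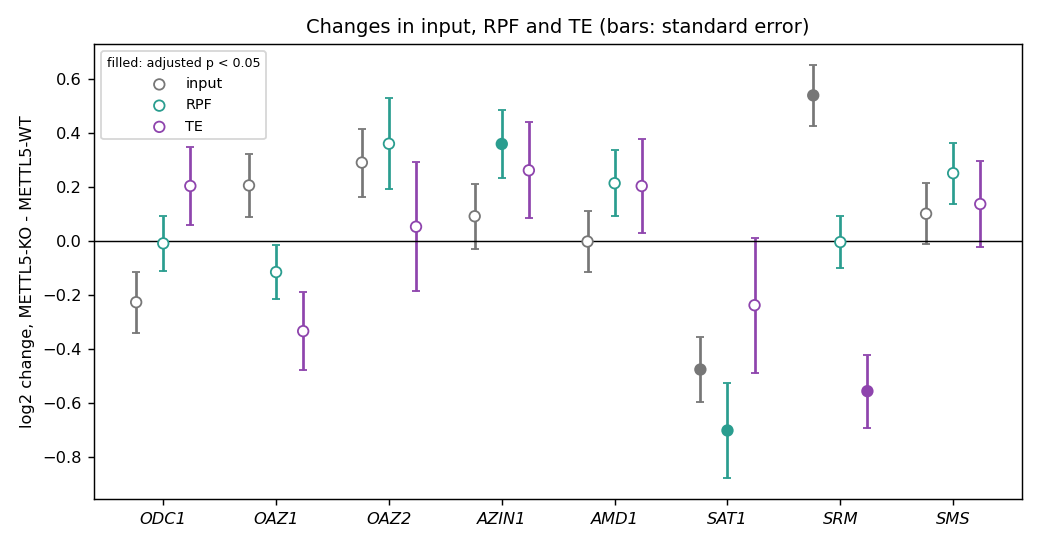
Log2 change (METTL5-KO minus METTL5-WT) of the 8 genes in input (grey), RPF (green) and TE (purple), with bars for the standard error and filled points for an adjusted p under 0.05. The filled points are SRM in input and TE, SAT1 in input and RPF, and AZIN1 in RPF.

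**Figure D4:**
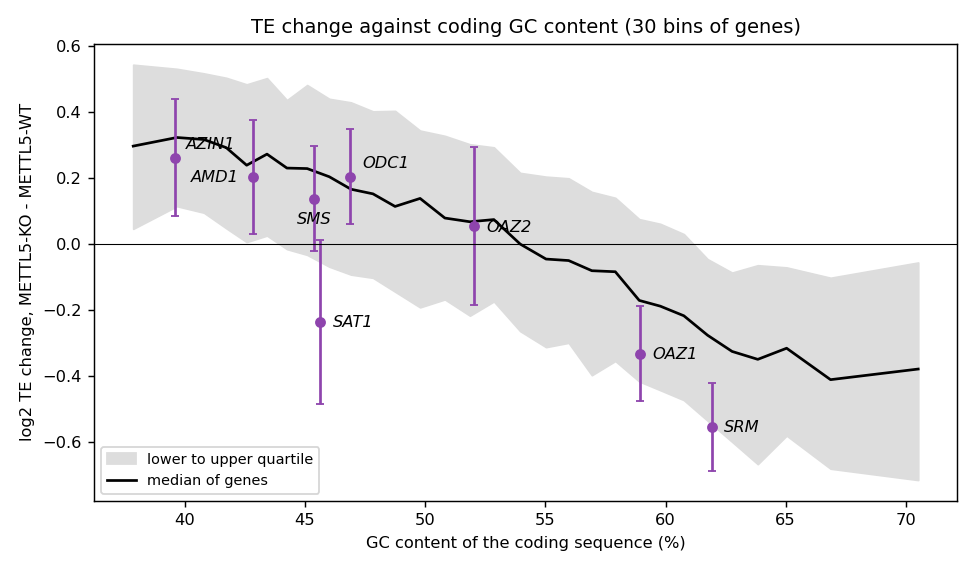
TE change (log2, METTL5-KO minus METTL5-WT) of the 8 genes against the GC content of their coding sequence in percent, with standard errors, over the median (line) and the quartiles (band) of genes in 30 bins of GC content. SRM, at 61.9% GC, lies lowest at −0.56. Among genes within 2 percentage points of GC, SRM (percentile 24.2) and SAT1, at 45.6% GC (percentile 13.2), both lie below the lower quartile.

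The order of the members by GC content was close to that of their TE changes, with SAT1 apart. AZIN1, AMD1, SMS and ODC1, at 39.6% to 46.9% GC, had TE changes of 0.14 to 0.26 and stood between percentiles 40.7 and 53.2 of genes with like GC content. SAT1, at 45.6% GC, had −0.24 and stood at percentile 13.2 of its 1688 neighbours. Its TE change rested on single lysates, at 0.064 without METTL5-WT replicate 2 and −0.54 without METTL5-WT replicate 1. With the GC trend removed, the smallest adjusted p of the 8 TE changes was 0.28 (limma), where 2.4% of all genes were called. Whether GC content has a part in these differences was not tested.

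The genes around the pathway were taken from lists of 43 other genes, of which 37 were tested. In input 6 were higher and 8 lower in METTL5-KO, where 22.4% of all genes were called, and in RPF 5 were higher and 6 lower, where 29.3% of all genes were. In TE, where limma called 4.79% of all genes, it called 1 higher and 0 lower. At an unadjusted p under 0.05 in limma, 5 were higher and 5 lower, where 2537 of all 11240 genes passed. In edgeR, 1 was higher and 2 lower (6.81% of all genes called). The median changes of the 37 genes were −0.07 in input, −0.05 in RPF and −0.07 in TE.

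SMOX, the spermine oxidase that returns spermine to spermidine, had the largest fall of the lists. It had 342 and 337 input counts in METTL5-WT against 73 and 108 in METTL5-KO, and 193 and 213 RPF reads against 73 and 86 in libraries of greater depth. The change was −2.27 ± 0.19 in input (adjusted p = 2.76e-09) and −2.26 ± 0.20 in RPF (adjusted p = 4.63e-07), with a TE change of −0.01 ± 0.29. SAT1 and SMOX, enzymes of polyamine breakdown, were thus both lower in input and RPF. SAT2, a relative of SAT1, was higher in input instead (0.50 ± 0.15, adjusted p = 0.0163), with 0.31 ± 0.16 in RPF (adjusted p = 0.166).

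Of 10 transporter genes, 8 were tested. SLC22A3, an organic cation transporter that can carry polyamines, rose by 1.73 ± 0.15 in input (adjusted p = 1.14e-08) and 1.60 ± 0.18 in RPF (adjusted p = 4.54e-06), from 149 and 159 to 616 and 692 input counts. SLC12A8 rose by 1.46 ± 0.23 in input (adjusted p = 5.63e-05) with an RPF change of 0.10 ± 0.27, and its TE change of −1.33 ± 0.38 missed the threshold in limma (adjusted p = 0.0543) and passed it in edgeR (adjusted p = 0.0241). SLC7A1, a carrier of arginine and ornithine, differed in RPF and not in input by the test, with an input change of −0.06 ± 0.11 (adjusted p = 0.736) and an RPF change of −0.61 ± 0.11 (adjusted p = 0.000695). Its TE change was −0.56 ± 0.16 (adjusted p = 0.0538 by limma and 0.0266 by edgeR). SLC7A2, of the same family, had 5 to 20 input counts and fell in input (−2.00 ± 0.65, adjusted p = 0.0294).

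Ornithine supply held the only gene of these lists that limma called in TE. OAT, the mitochondrial ornithine aminotransferase, had 1169 and 1115 input counts in METTL5-WT against 846 and 1076 in METTL5-KO, a change of −0.61 ± 0.12 (adjusted p = 0.000536). Its RPF change was 0.07 ± 0.11 (adjusted p = 0.671) and its TE change was 0.67 ± 0.16 (adjusted p = 0.0249 by limma and 0.016 by edgeR), or 0.47 with the GC trend removed (adjusted p = 0.111). ARG2, the mitochondrial arginase that yields ornithine, fell in input (−1.33 ± 0.36, adjusted p = 0.00945). ALDH18A1, which makes the glutamate semialdehyde that leads to proline and ornithine, fell in input (−0.52 ± 0.13, adjusted p = 0.00406) and RPF (−0.62 ± 0.14, adjusted p = 0.00293). ASL, argininosuccinate lyase, rose in input by 0.73 ± 0.21 (adjusted p = 0.0132). Of the 8 tested genes of this list, 1 was higher and 4 lower in input (22.4% of all genes called), and 3 were lower in RPF (29.3%).

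On the side of the aminopropyl donor, 9 of 10 genes were tested, with 1 higher and 2 lower in input (22.4% of all genes called) and 2 higher and 1 lower in RPF (29.3%). MRI1, of the salvage route for the methylthioadenosine that SRM and SMS release, fell in input (−0.49 ± 0.12, adjusted p = 0.00496) and RPF (−0.87 ± 0.11, adjusted p = 2.71e-05). MAT2B, a regulatory subunit of S-adenosylmethionine synthesis, rose in RPF by 0.52 ± 0.16 (adjusted p = 0.0231 by limma and 0.0269 by edgeR), and GOT1, a transaminase, rose in input by 0.41 ± 0.12 (adjusted p = 0.0123). AHCY, which clears S-adenosylhomocysteine, fell in input (−0.34 ± 0.12, adjusted p = 0.0414).

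ODC1 is a textbook target of the transcription factor MYC, and 4 genes of the MYC network were tested, of which 1 was higher in input (22.4% of all genes called) and 2 were higher in RPF (29.3%). MYC and MNT, named here after their values were seen, were not called. MYC had changes of 0.09 ± 0.11 in input (adjusted p = 0.63), −0.16 ± 0.10 in RPF (adjusted p = 0.245) and −0.26 ± 0.14 in TE (adjusted p = 0.284). MNT, another repressor of the network, had 0.12 ± 0.16 in input and −0.23 ± 0.20 in RPF (adjusted p = 0.419). MAX, the partner of MYC, rose in RPF by 0.84 ± 0.14 (adjusted p = 0.000257), with an input change of 0.23 ± 0.12 (adjusted p = 0.176). MXD4, a repressor that competes for MAX, rose in input by 0.46 ± 0.13 (adjusted p = 0.0112) and in RPF by 0.34 ± 0.12 (adjusted p = 0.0402). Of the 4 genes for eIF5A and for hypusine, the residue that eIF5A receives from spermidine, 0 were called in input by edgeR or DESeq2, in RPF or in TE by limma, edgeR or DESeq2. At an unadjusted p under 0.05 there was 1 of them in each readout by each of these tests. The direction was lower in METTL5-KO, except in input by DESeq2, where it was higher. Over all genes, 4810 of 14054 passed an unadjusted p under 0.05 in input by edgeR. By limma, 4497 of 11240 passed in RPF and 2537 in TE. Leaving out METTL5-WT replicate 1, replicate 2 or either of them ended the input call of every pathway gene named here as called in input other than SMOX, SLC22A3 and SLC12A8, and DESeq2 did not call SAT2, SLC7A2, ARG2 or ASL in input. The RPF calls of MAT2B and MXD4 and the TE call of OAT were also lost with single lysates left out.

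**Figure D5:**
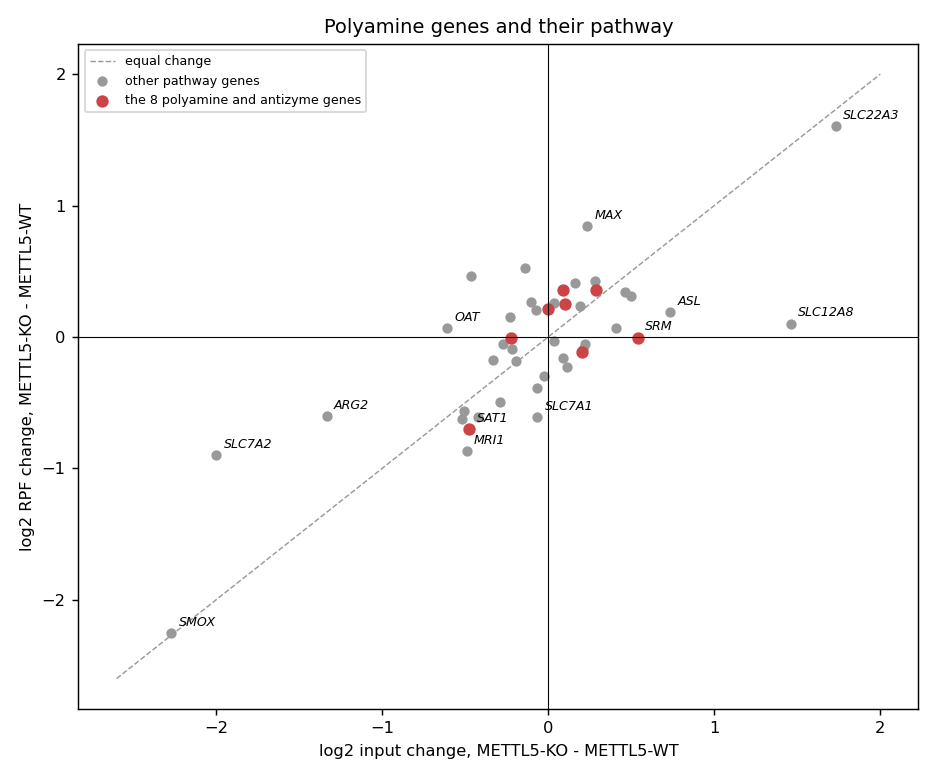
Change in RPF against change in input (both log2, METTL5-KO minus METTL5-WT) for the 8 genes in red and the other tested pathway genes in grey, with a dashed line where both changes are equal. SMOX and SLC22A3 lie near that line at its ends, whereas SRM and SLC12A8 lie on the right near an RPF change of 0.

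Profiles across the 8 libraries were compared last. Each gene's log2(value + 1) was centred on its own mean within those 8 libraries, and the distance to each of 8603 genes with a mean of at least 100 was measured. The nearest gene was MRPL3 for ODC1 (distance 0.17), TRIR for OAZ1 (0.18), UMAD1 for OAZ2 (0.31) and PDK3 for AZIN1 (0.19). It was ARPP19 for AMD1 (0.30), HMBOX1 for SAT1 (0.36), ZNF787 for SRM (0.25) and ZFX for SMS (0.21). Among the nearest 3 genes of any member another member appeared once, SMS at rank 3 for AZIN1 (0.26). Because the profile holds both library types, it is set in large part by the ratio of RPF to input of each gene.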

How the data were processed

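The authors trimmed reads with BBDuk, aligned input reads to hg38 with STAR 2.7.3a and deposited raw counts per gene over exons by strand from featureCounts (2.0.1 in the file header and 1.6.0 in the methods). The table held 60718 genes after 3 lines of a broken entry were left out. RPF reads were stripped of rRNA and passed to RiboToolkit, and the deposited signal values of 11244 genes in 8 libraries carry the name RPKM. They proved to be whole reads divided by a size factor per library. A value was taken as whole within 0.01 reads, a tolerance that widened in proportion to the reads of high genes. By this rule 100% were whole, and 100% of input values equalled the count table. Reads were recovered from them for the count tests. Each listed gene had at least 1 read in every library. The authors' deposited log2 fold change of TE, p-value and adjusted p-value columns were not used, and the deposited exon length, in other units (bases), served only for an alternative baseline TE.

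For input, the quasi-likelihood test of edgeR 4.0.16 was run on the counts with TMM scaling after filterByExpr (14054 genes). For RPF and TE, limma 3.58.1 with a trended eBayes prior was fitted to log2(value + 1) of all 8 libraries together, for the 11240 genes whose input mean and RPF mean both reached 1. edgeR and DESeq2 1.42.0 (R 4.3.3) on recovered reads were alternatives. A gene was called at a Benjamini-Hochberg adjusted p under 0.05 (two-sided). Coding lengths, GC content and leaders came from canonical transcripts of GENCODE 44 (99.8% of the TE table), sequences from hg38, and GC trends were removed per library by local regression of span 0.3. Input with the GC trend removed was tested with limma on the TE table rather than with edgeR. The tests were tried on simulated data. Earlier simulations on these values had found the limma test of RPF liberal, that is, prone to call too many genes. The edgeR result is therefore given beside each RPF call of a member. Differences between replicates of a genotype correlated across genotypes at 0.04 in input and −0.00 in RPF. Input and RPF of a lysate are paired by the protocol, and their replicate differences correlated at −0.02 in METTL5-WT and 0.05 in METTL5-KO. Such correlations were thus near 0 even for a known pairing, so they cannot tell whether replicate numbers pair the genotypes.

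The 8 genes and all gene lists were chosen with earlier results of these data known. Named were all members, METTL5, every other list gene called in TE, and per list up to 2 rises and 2 falls among genes called in input or RPF. Pseudogenes of the members had 0 to 3 input counts per library.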

Additional observations from a re-analysis of the deposited data

How the results depend on the processing

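Depth limits OAZ2, SAT1, AMD1 and SMS most, with 94 to 195 footprint reads in METTL5-WT libraries, and 2 samples a group leave calls to the spread shared across genes. Fits without a lysate leave a genotype with a single lysate, assumed to vary like the other groups. The number of genes called in input was 3149 of 14054 with edgeR, and 1220 to 5474 with a replicate left out. With limma on the TE table (added after the data were seen) it was 1947 of 11240. With limma and the GC trend removed it was 1919 of 11220. The count of 1919 is thus to be set beside 1947, since 3149 came from another test and gene set. Members called in input were 2 with edgeR, 1 with limma on the TE table and 1 with the GC trend removed as well. With a replicate left out they were 0 to 5. There were 0 without METTL5-WT replicate 1 or 2, 5 without METTL5-KO replicate 1 and 4 without METTL5-KO replicate 2. The members added there were ODC1 (−0.22), OAZ1 (0.28) and OAZ2 (0.38) without METTL5-KO replicate 1, and ODC1 (−0.22) and AZIN1 (0.24) without METTL5-KO replicate 2. In RPF, 3288 genes were called, and 1986 to 2772 with a lysate left out, and members fell from 2 to 1 with edgeR, DESeq2, the GC trend removed, the length trend removed, the 4 RPF libraries alone or any lysate left out, and to 0 in limma without trend. In TE, 538 genes were called, 856 with DESeq2, 269 with the GC trend removed, 1 in limma without trend and 4 to 266 with a lysate left out (4 without METTL5-KO replicate 2). The single member called in TE became 0 in limma without trend, with the GC trend removed, with the replicate block on the lysate and the GC trend removed together, and with any lysate left out.

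With a replicate block on the number, 3554 genes were called in input, 3318 in RPF and 588 in TE, and with a block on the lysate 794 in TE. These blocks changed no call of a member, and among the other named genes the lysate block added calls of SLC7A1 (−0.56) and MAT2B (0.66) in TE and the number block that of SLC7A1. The labels give the same replicate numbers to both genotypes and do not state a pairing. The number of members below the median gene in baseline TE was 7, and 5 to 7 under other lengths or with a METTL5-WT lysate left out.

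Of the changes of members under all settings, 61 in input, 116 in RPF and 127 in TE kept their direction and side of the threshold, and 8, 7 and 10 turned direction. The directions that turned follow, and the cause was not tested. In input AMD1 became 0.0029 with DESeq2, 0.14 with the GC trend removed, 0.010 with limma on the TE table, 0.026 with no filter and 0.018 with upper quartile normalization. In RPF, centring libraries on their medians gave 0.0072 for ODC1 and 0.012 for SRM, removing the GC trend gave 0.15 for SRM and −0.019 for OAT, and quantile normalization gave −0.012 for OAT and −0.050 for GOT1. In TE, removing the GC trend, with or without the lysate block, gave −0.037 for AZIN1, −0.050 for AMD1, −0.059 for SMS, 0.23 for SMOX and 0.22 for MXD4. Removing the length trend gave −0.037 for OAZ2 and 0.0039 for SMOX, median centring 0.016 for SMOX, and quantile normalization 0.062 for SMOX and −0.0043 for AHCY. With a lysate left out, input ran from −0.053 to 0.24 for AZIN1, −0.050 to 0.057 for AMD1 and −0.31 to 0.029 for MAT2B. RPF ran from −0.13 to 0.11 for ODC1, −0.029 to 0.020 for SRM, −0.053 to 0.26 for SLC12A8, −0.045 to 0.19 for OAT, −0.069 to 0.44 for ASL and −0.069 to 0.21 for GOT1. TE ran from −0.18 to 0.28 for OAZ2, −0.54 to 0.064 for SAT1 and −0.092 to 0.081 for SMOX.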
